A study of Rattus norvegicus with 40 samples.

Results

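Myog, Myod1, Gadd45a and Cdkn1a are regulators known to respond when a muscle loses its nerve, and their transcripts were followed in both muscles and at both ages of a rat sarcopenia series. The members were chosen by their Ensembl rat identifiers, ENSRNOG00000030743 for Myog, ENSRNOG00000011306 for Myod1, ENSRNOG00000005615 for Gadd45a and ENSRNOG00000000521 for Cdkn1a. These 4 genes are 4 of the 32545 rows of the deposited count table and were named by identifier, with earlier results of these data known. All 4 passed the filter on low values, and their counts ranged from 129 to 30403 per library.

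Polyadenylated RNA was sequenced from the gastrocnemius of the calf, in the hind limb, and from the triceps of the fore limb. The animals were 20 male rats of the outbred Wistar strain, 10 aged 20 months and 10 others aged 22 months, the ages between which this strain passes into the sarcopenic phase. Each animal gave 1 library per muscle, which makes 4 groups of 10 libraries. The labels name no treatment, no transgene and no denervated control. Ageing rats of this strain are known to develop a neuropathy with muscle loss that is stronger in the hind limbs.

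In an innervated fibre, electrical activity keeps myogenin low. When the nerve is lost, the deacetylase Hdac4 rises, repression of the myogenin gene is lifted, and myogenin turns on genes of the acetylcholine receptor and of ubiquitin ligases. MyoD and myogenin are both basic helix-loop-helix factors that bind the E-box motif. Gadd45a, a stress-induced nuclear protein, is induced in denervated and in fasted muscle and promotes fibre atrophy. Cdkn1a encodes p21, an inhibitor of cyclin-dependent kinases and a target of p53, which holds differentiating muscle cells out of the cell cycle.

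The promoter sequences are shown because the E-box is the motif that the proteins of Myog and Myod1 bind. They are the 250 bases before the annotated start, 5′ to 3′ on the gene's strand, from RefSeq on build GRCr8, a later build than the Rnor_6.0 named for the counts. Capitals mark matches to the E-box, CANNTG. The windows are chr13:48297226-48297475 on the plus strand for Myog, chr4:97486800-97487049 on the minus strand for Gadd45a and chr20:7150682-7150931 on the plus strand for Cdkn1a. Of the 4 genes, 3 matched an entry by symbol, and Myod1 is named only.
Myog: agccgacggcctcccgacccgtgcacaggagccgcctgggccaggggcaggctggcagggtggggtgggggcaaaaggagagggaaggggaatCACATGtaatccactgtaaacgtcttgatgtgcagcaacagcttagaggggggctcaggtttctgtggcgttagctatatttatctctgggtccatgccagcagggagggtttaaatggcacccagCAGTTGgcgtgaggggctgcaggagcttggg
Gadd45a: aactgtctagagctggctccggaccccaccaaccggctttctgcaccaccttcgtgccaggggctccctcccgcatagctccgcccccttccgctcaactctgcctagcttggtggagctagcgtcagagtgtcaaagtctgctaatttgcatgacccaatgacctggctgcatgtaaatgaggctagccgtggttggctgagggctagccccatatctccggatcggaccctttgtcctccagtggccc
Cdkn1a: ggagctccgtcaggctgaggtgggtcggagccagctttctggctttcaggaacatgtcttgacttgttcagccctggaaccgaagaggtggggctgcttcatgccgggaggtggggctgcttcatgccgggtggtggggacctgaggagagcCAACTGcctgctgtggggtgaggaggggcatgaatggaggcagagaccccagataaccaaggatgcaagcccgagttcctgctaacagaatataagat

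The Myog window held 2 E-box matches, CACATG at position -157 and CAGTTG at position -31, counted from the start to the first base of the match. The Cdkn1a window held 1, CAACTG at position -98, and the Gadd45a window held 0. A match to CANNTG was found in 65.5% of 33469 rat promoter windows of the same kind, so its presence does not set these windows apart. Windows were searched on both strands also for a strict form of the MEF2 motif, CTA and TAG with any 4 bases between. That form was present in 3.41% of all windows, and TATAAA, searched as well, in 12.9%. Neither was matched in any of the 3 windows, which says only that these exact letters were not there. Other forms of the MEF2 motif were not searched. The Myog window holds ctatatttat, which differs from the form searched only in its last base. The MEF2 and TATAAA letters can share bases, and a match is a description of the sequence, not a bound site.

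Total counts ranged from 10983887 to 68580194 per library, with group medians of 24251735 and 26775962 in gastrocnemius at 20 and 22 months and of 19016187 and 16966394 in triceps. The deepest library was replicate 4 of the 20-month triceps. Replicate 7 of the same group stood apart from the other triceps libraries, at -59.8 on the first principal component (PC1) of triceps expression against -39.8 to 24.6 in the other 19. That library held the lowest triceps level of Myod1, at 18.0 CPM (the count of a gene relative to its library total), whereas its Myog and Gadd45a levels, 12.2 and 11.8 CPM, lay inside the triceps range. Levels below are CPM with TMM scaling, which corrects library totals for differences in composition, and they are compared between libraries of 1 gene, not between genes, since transcript lengths are not part of the scale.

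Myog, Gadd45a and Cdkn1a were several-fold higher in gastrocnemius than in triceps at both ages, and Myod1 was not called different between the muscles. No member was called different between 20 and 22 months in either muscle. Within gastrocnemius, animals high in Gadd45a were also high in Myog and in Cdkn1a. Between the muscles of an animal, Cdkn1a levels went together over all 20 animals, whereas no such relation was detected for Myog or Gadd45a. Within the ages, the Cdkn1a relation was detected at 20 months and not at 22 months, a difference that was not tested. Myod1 levels also went together between the muscles, but little of that relation remained without 2 extreme animals.

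Myogenin, the factor that drives terminal differentiation of muscle cells, had clearly separated levels in the muscles. At 20 months, Myog in gastrocnemius had a lowest level of 38.3 CPM, a median of 107.4 and a highest of 148.5, with a mean of 101.2 ± 39.5 CPM (SD, n = 10). In triceps of the same animals the lowest was 9.45 CPM, the median 13.0 and the highest 34.0, with a mean of 16.6 ± 7.60 CPM. The lowest gastrocnemius library lay above the highest triceps library, and the groups did not overlap. At 22 months the gastrocnemius levels ran from 82.6 CPM over a median of 135.6 to 195.9, with a mean of 138.0 ± 36.7 CPM. Those of triceps ran from 9.56 CPM over a median of 12.3 to 32.9, with a mean of 14.8 ± 6.88 CPM. Again the muscles did not overlap, and in triceps a single library, replicate 7, held the top level while the next highest was 17.8 CPM. Ordered by mean level, the groups were gastrocnemius at 22 months, gastrocnemius at 20 months, triceps at 20 months and triceps at 22 months, and the neighbours that share a muscle overlapped.

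Gadd45a showed the same separation of the muscles. Its gastrocnemius levels at 20 months had a lowest of 36.9 CPM, a median of 81.2 and a highest of 133.9, with a mean of 83.0 ± 33.2 CPM. Triceps at that age held a lowest of 8.78 CPM, a median of 14.0 and a highest of 21.7, with a mean of 14.4 ± 3.44 CPM. The 20-month muscles did not overlap, and triceps levels lay close together. At 22 months gastrocnemius ran from 72.2 CPM over a median of 139.8 to 201.9, with a mean of 140.1 ± 49.9 CPM. Triceps ran from 10.2 CPM over a median of 13.3 to 31.4, with a mean of 15.1 ± 6.07 CPM. The muscles stayed separate, and the highest triceps library was again replicate 7, with the next highest at 17.0 CPM. The order of mean levels was gastrocnemius at 22 months, gastrocnemius at 20 months, triceps at 22 months and triceps at 20 months, where the triceps groups overlapped almost fully. In RefSeq GRCr8 the span of Gadd45a overlaps another gene model, LOC100912188, and the library kit did not mark strand, so reads of the 2 genes may not be told apart. The other 3 members overlap no other gene model there.

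The p21 gene Cdkn1a spread furthest among the 20-month animals. In 20-month gastrocnemius its lowest level was 63.8 CPM, its median 283.2 and its highest 963.7, with a mean of 318.8 ± 255.5 CPM. In triceps of these animals the lowest was 16.5 CPM, the median 40.5 and the highest 85.6, with a mean of 42.2 ± 21.2 CPM. Here the groups overlapped, since triceps replicates 3 and 8, at 85.6 and 68.4 CPM, exceeded gastrocnemius replicate 1 at 63.8 CPM. The triceps of replicate 1 itself held only 19.8 CPM. At 22 months gastrocnemius ran from 218.3 CPM over a median of 496.4 to 848.8, with a mean of 499.1 ± 177.4 CPM. Triceps ran from 37.5 CPM over a median of 58.8 to 90.6, with a mean of 60.2 ± 17.9 CPM. At this age the muscles did not overlap. Mean levels were highest in gastrocnemius at 22 months, then in gastrocnemius at 20 months, triceps at 22 months and triceps at 20 months.

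Myod1 encodes MyoD, which commits cells to the muscle lineage, and its levels lay closer together. Gastrocnemius at 20 months ran from 22.8 CPM over a median of 57.9 to 117.7, with a mean of 64.8 ± 31.3 CPM. Triceps at 20 months ran from 18.0 CPM over a median of 47.0 to 60.5, with a mean of 45.5 ± 13.0 CPM. The lower gastrocnemius libraries lay inside the triceps range. At 22 months the gastrocnemius levels ran from 43.0 CPM over a median of 66.8 to 141.8, with a mean of 76.2 ± 32.3 CPM, and those of triceps from 42.1 CPM over a median of 55.1 to 68.9, with a mean of 55.4 ± 9.50 CPM. All 4 groups overlapped, and they were ordered as gastrocnemius at 22 months, gastrocnemius at 20 months, triceps at 22 months and triceps at 20 months.

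**Figure D1:**
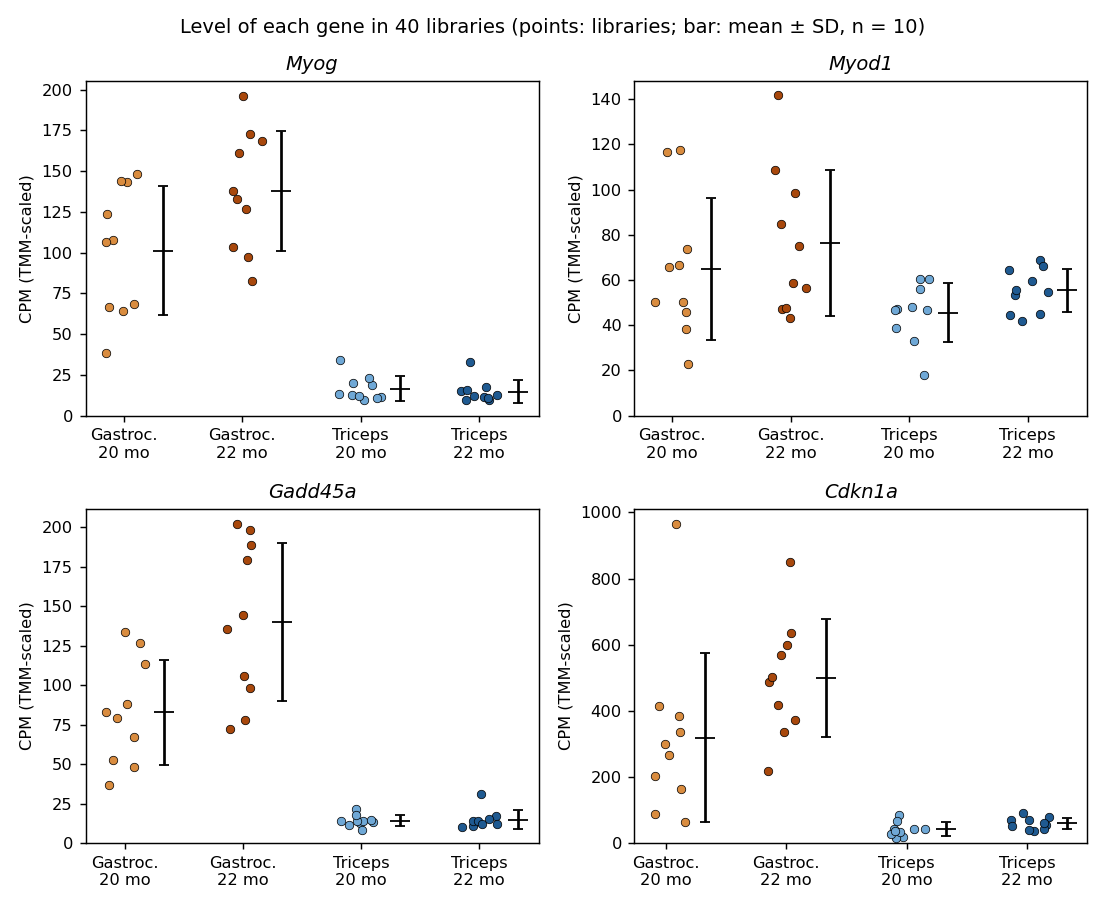
Level of each gene in CPM scaled by TMM (vertical axes, linear and separate for each gene) in the 4 groups of 10 libraries, with points for libraries and bars for the mean ± SD. For Myog and Gadd45a every gastrocnemius point lies above every triceps point of the same age, 20-month gastrocnemius replicate 3 stands at 963.7 CPM for Cdkn1a, and the Myod1 groups overlap.

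The comparison of muscles asks how the hind limb and the fore limb muscle differ at a given age. At 20 months 3 of the 4 members were called higher in gastrocnemius by the quasi-likelihood test of edgeR at a Benjamini-Hochberg adjusted p under 0.01, where 2.39% of the 12426 genes tested were called higher. Myog was higher by 2.62 on the log2 scale (SE 0.26), a 6.17-fold difference with an adjusted p of 2.10e-06 by edgeR. Gadd45a was higher by 2.55 (SE 0.22), 5.86-fold, with an edgeR adjusted p of 1.47e-07. Cdkn1a was higher by 2.94 (SE 0.41), 7.65-fold, at an edgeR adjusted p of 0.000109. These 3 were among the 0.459% of genes with a log2 difference above 2, and they held ranks 28, 31 and 21 of 12426 by the size of the difference. Myod1 differed by 0.52 (SE 0.24, 95% interval 0.01 to 1.03), with an unadjusted p of 0.0456 and an edgeR adjusted p of 0.190, and was not called. DESeq2 and limma-voom also called 3 members higher, against 3.89% and 2.13% of all genes.

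At 22 months Myog was higher in gastrocnemius by 3.24 on the log2 scale (SE 0.22), or 9.44-fold, with an edgeR adjusted p of 6.17e-10. Gadd45a was higher by 3.24 (SE 0.23), 9.42-fold, with an adjusted p of 1.63e-09 by edgeR. Cdkn1a was higher by 3.06 (SE 0.22), 8.36-fold, with an adjusted p of 1.61e-09 by edgeR. So 3 of 4 members were called higher, where 10.5% of 12565 genes were. DESeq2 and limma-voom gave 3 of 4 as well, against backgrounds of 12.5% and 10.3%. The log2 differences of the 3 genes were above 2, as for 0.883% of genes, at ranks 43, 44 and 49. Myod1 differed by 0.47 (SE 0.19, 95% interval 0.08 to 0.87), with an unadjusted p of 0.0197 and an edgeR adjusted p of 0.0559. The adjusted p of Myod1 was 0.0407 by DESeq2, 0.132 by limma-voom and 0.0139 by edgeR with library totals, none under 0.01. Over all genes, the split of calls depended on the scaling: 297 of 467 calls at 20 months and 1318 of 2552 at 22 months were higher in gastrocnemius with TMM, and 323 of 425 and 2830 of 3465 with library totals. The 3 members were called higher under both.

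Non-overlap of the muscles was rarer than a call. Every gastrocnemius library exceeded every triceps library for Myog and Gadd45a at 20 months, 2 of 4 members, where this held for 42 genes or 0.338% of those tested. At 22 months it held for Myog, Gadd45a and Cdkn1a, 3 of 4, beside 289 genes or 2.30%. The median log2 difference of the members was 2.59 at 20 months and 3.15 at 22 months, against medians of 0.00 and 0.01 over all genes tested. In bulk muscle, fewer cells of a type and less RNA per cell cannot be told apart.

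Because both muscles came from each animal, the ratio of gastrocnemius to triceps CPM could be taken within animals. At 20 months 10 of 10 animals had more Myog in gastrocnemius, with ratios from 2.01 over a median of 6.21 to 15.2, as had 10 of 10 at 22 months, with ratios from 3.15 over a median of 10.2 to 15.8. For Gadd45a the ratio was above 1 in 10 of 10 animals at each age, from 2.21 over a median of 5.78 to 9.81 at 20 months and from 2.48 over a median of 10.7 to 16.3 at 22 months. The lowest ratios of both genes belonged to the same animals, replicate 9 at 20 months and replicate 7 at 22 months. These are the animals whose triceps was highest in its group for both genes. For Cdkn1a, ratios ran from 3.22 over a median of 6.63 to 11.3 at 20 months and from 4.24 over a median of 9.42 to 13.4 at 22 months, again above 1 in 10 of 10 animals at each age. The animal with the overlapping gastrocnemius level, replicate 1 at 20 months, had the lowest 20-month ratio. The gastrocnemius held more Myod1 in 8 of 10 animals at 20 months, with ratios from 0.951 to 3.55, and in 7 of 10 at 22 months, with ratios from 0.723 to 2.14. Its medians were 1.20 and 1.21.

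**Figure D2:**
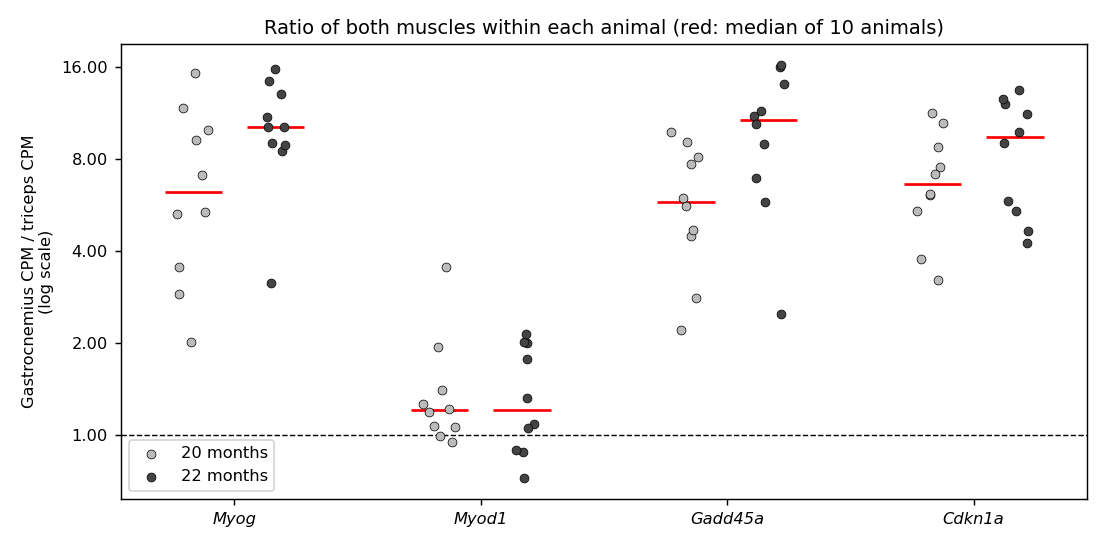
Ratio of gastrocnemius to triceps CPM within each animal (vertical axis, log scale) for the 4 genes at 20 and 22 months, 10 animals each, with red lines at the medians. All ratios of Myog, Gadd45a and Cdkn1a lie above 1, from a lowest of 2.01, while those of Myod1 lie on both sides of 1.

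The comparison of ages asks whether the members changed as the animals passed from 20 to 22 months. In gastrocnemius 0 of 4 members were called by edgeR, DESeq2 or limma-voom at an adjusted p under 0.01, where these tools called 0.00%, 0.00790% and 0.00% of 12659 genes. At an unadjusted p under 0.05 edgeR and DESeq2 took 2 of 4, Myog and Gadd45a, and limma-voom took 3, adding Cdkn1a, where 10.3%, 11.5% and 11.1% of all genes passed. Gadd45a was 0.76 higher at 22 months on the log2 scale (SE 0.24, 95% interval 0.26 to 1.27), with an unadjusted p of 0.00501 and an edgeR adjusted p of 0.412. Of the 22-month libraries, 6 lay above the highest 20-month library for Gadd45a, and the others lay inside the 20-month range. Its difference ranked 104 of 12659 by size. Myog differed by 0.46 (SE 0.22, 95% interval 0.00 to 0.91), with an unadjusted p of 0.0491 and an edgeR adjusted p of 0.482. Here 4 of the 22-month libraries lay above the highest 20-month one. With single animals left out, the Myog difference ran from 0.36 to 0.53 and its unadjusted edgeR p from 0.0261 to 0.0973.

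Cdkn1a in gastrocnemius differed by 0.65 (SE 0.36, 95% interval -0.10 to 1.40), with an edgeR adjusted p of 0.523. The 20-month replicate 3, at 963.7 CPM, lay above every 22-month library. Without it the difference was 1.02 (SE 0.31), with an unadjusted p of 0.00349 and an edgeR adjusted p of 0.275, so it was still not called. This run was the highest of those with single animals left out. Over all of them the Cdkn1a difference ran from 0.53 to 1.02 and its unadjusted edgeR p from 0.00349 to 0.152. By limma-voom the difference was 0.92 (SE 0.40). Myod1 differed by 0.25 (SE 0.27, 95% interval -0.31 to 0.81), with an edgeR adjusted p of 0.738, and this value was 0.10 without 22-month replicate 10 and 0.39 without 20-month replicate 10. The median log2 difference of the 4 genes was 0.56, against 0.01 over all genes tested. For age in triceps it was 0.18, against 0.01, and for the difference of the age effects 0.37, against -0.01. These medians were not tested.

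In triceps 0 of 4 members were called by any of the tools, as for 0.00% of 12345 genes by each. At an unadjusted p under 0.05, Cdkn1a passed by edgeR and limma-voom and no member by DESeq2, with 8.78%, 8.72% and 9.31% of all genes passing. Cdkn1a was 0.52 higher at 22 months on the log2 scale (SE 0.24, 95% interval 0.03 to 1.02), with an unadjusted p of 0.0401 and an edgeR adjusted p of 0.551. The ages overlapped, and 1 library, replicate 4 of 22 months, lay above the highest 20-month level. Myod1 differed by 0.29 (SE 0.15, 95% interval -0.03 to 0.61), with an edgeR adjusted p of 0.612. Myog differed by -0.16 (SE 0.24, 95% interval -0.65 to 0.33) and Gadd45a by 0.08 (SE 0.17, 95% interval -0.28 to 0.43), with edgeR adjusted p-values of 0.874 and 0.925. The sign of each of these last values turned when a single library was left out, to 0.02 for Myog without replicate 9 of 20 months and to -0.12 for Gadd45a without replicate 7 of 22 months.

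Whether the age difference was unequal in the muscles was tested in 1 fit of all 40 libraries, as the gastrocnemius change minus the triceps change. None of the 4 members was called by edgeR, DESeq2 or limma-voom, like 0.00% of 12980 genes by each tool, and all 4 edgeR adjusted p-values were 0.999. Gadd45a passed an unadjusted p under 0.05 by all 3 tools, 1 of 4 members, where 3.0%, 3.31% and 3.10% of genes did. Its age difference was larger in gastrocnemius by 0.68 on the log2 scale (SE 0.31, 95% interval 0.06 to 1.31), with an unadjusted p of 0.0317 by edgeR. The value for Myog was 0.61 (SE 0.34, 95% interval -0.06 to 1.29), that for Cdkn1a 0.13 (SE 0.45, 95% interval -0.77 to 1.04) and that for Myod1 -0.05 (SE 0.32, 95% interval -0.69 to 0.60). With the animal as a block, which accounts for both muscles coming from it, the values were 0.75 (SE 0.32) for Gadd45a, 0.68 (SE 0.33) for Myog, 0.32 (SE 0.26) for Cdkn1a and -0.04 (SE 0.24) for Myod1, and the lowest edgeR adjusted p was 0.932. Leaving out 1 animal at a time, Myog ran from 0.39 without 20-month replicate 9 to 0.88 without 22-month replicate 7, and Gadd45a from 0.54 to 0.95 without the same animals. Without 20-month replicate 9 the unadjusted edgeR p of Gadd45a was 0.0831. It was 0.0703, 0.0675 and 0.0625 without 22-month replicates 2, 3 and 4, and stayed under 0.05 without any other animal. The value of Cdkn1a ran from 0.041 without 22-month replicate 3 to 0.33 without 20-month replicate 3.

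**Figure D3:**
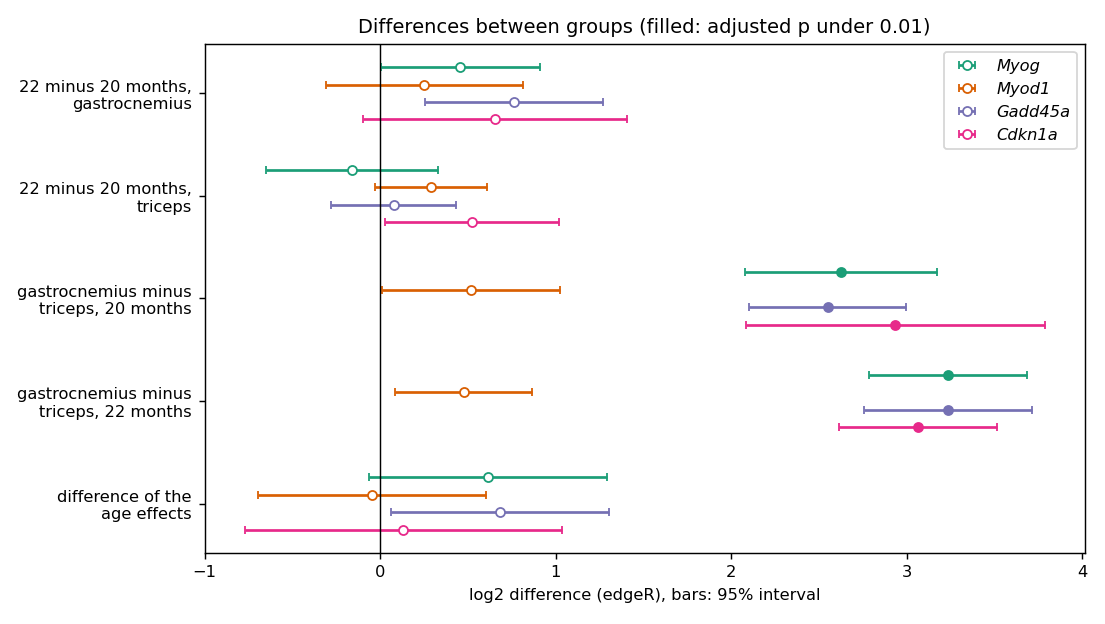
Differences between groups on the log2 scale by edgeR (horizontal axis) for the 4 genes in the 5 comparisons, with bars for the 95% interval and filled points for an adjusted p under 0.01. The filled points are those of Myog, Gadd45a and Cdkn1a between the muscles, at 2.55 to 3.24, and the points of the age comparisons are all open.

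Animals of 1 group differed more in these genes than in most, and in 16 of 16 sets of a gene and a group the CV (coefficient of variation, the SD over the mean CPM) was above the median of all genes. The CV of Cdkn1a in 20-month gastrocnemius was 80.2%, against a median of 18.6% over 12980 genes, and 1.17% of genes had a higher CV. In 22-month gastrocnemius its CV was 35.5%, against a median of 18.1%. The highest Cdkn1a level of the 20-month gastrocnemius was 15.1 times the lowest, and that of the 22-month gastrocnemius 3.89 times. Myog had CVs of 39.0% and 26.6% in gastrocnemius at 20 and 22 months and of 45.7% and 46.5% in triceps. The CVs of Gadd45a were 40.1% and 35.6% in gastrocnemius and 23.9% and 40.3% in triceps, and the last includes the high replicate 7. For Myod1 the CVs were 48.3% and 42.3% in gastrocnemius. In triceps they were 28.7% and 17.1%, and the last is beside a median of 17.0% over all genes, with 49.3% of genes higher. The differences between CVs were not tested.

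To see whether animals high in 1 member were high in another, 24 relations across the 20 animals were computed on log2 CPM, and 9 passed an adjusted p under 0.05 for Pearson's r in permutation tests. How often relations of other genes would pass was not computed. Of the 9 that passed, 3 had a p under 0.05 once 2 animals were left out, those farthest from the median of the first measure. That measure was the first gene named, the gastrocnemius level or PC1. Leaving these animals out narrows its range, which can lower r also for a true relation. A lower r thus cannot show that a relation rests on them. In gastrocnemius Myog and Gadd45a had a Pearson's r of 0.793 (permutation p 2.00e-05, adjusted p 0.000400) and a Spearman's rho of 0.714 (permutation p 0.000650, adjusted p 0.00780). The r was 0.660 without the 2 animals, 0.793 within 20 months and 0.656 within 22 months. Gadd45a and Cdkn1a had an r of 0.790 (permutation p 4.00e-05, adjusted p 0.000400) and a rho of 0.839 (permutation p 2.00e-05, adjusted p 0.000480), with an r of 0.695 without the 2 animals, 0.762 within 20 months and 0.704 within 22 months. Both relations thus had the same sign within each age and without the extreme animals. The tests over all animals did not hold age apart. Within 20 months the adjusted permutation p-values were 0.0388 for Myog with Gadd45a and 0.0492 for Gadd45a with Cdkn1a. Within 22 months they were 0.188 for both, and neither passed.

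Myog and Cdkn1a in gastrocnemius had an r of 0.622 (permutation p 0.00392, adjusted p 0.0157) and a rho of 0.675 (permutation p 0.00145, adjusted p 0.00870). The r fell to 0.423 without the 2 extreme animals (permutation p 0.0801), and it was 0.438 within 20 months and 0.790 within 22 months. For Myog and Myod1 the r was 0.585 (permutation p 0.00685, adjusted p 0.0235) and the rho 0.556 (permutation p 0.0122, adjusted p 0.0405). This r was 0.410 without the 2 animals (permutation p 0.0904), 0.533 within 20 months and 0.620 within 22 months. Without the 2 animals, neither relation had a p under 0.05. Myod1 with Gadd45a had an r of 0.413 (adjusted permutation p 0.152) and with Cdkn1a an r of 0.472 (adjusted permutation p 0.0862), and neither passed. Without the 2 animals these were 0.276 (permutation p 0.266) and 0.511 (permutation p 0.0291).

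In triceps 1 of 6 pairs passed, Myog with Gadd45a, with an r of 0.746 (permutation p 0.000280, adjusted p 0.00134) and a rho of 0.576 (permutation p 0.00891, adjusted p 0.0356). Without the 2 extreme animals the r was 0.427 (permutation p 0.0767). Within 20 months the r was 0.855 and within 22 months 0.706, and each age held 1 animal that was the highest for both genes. The other 5 pairs in triceps had r between -0.00 and 0.38 and did not pass.

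Levels in gastrocnemius were also set against those in triceps of the same animal. Cdkn1a had an r of 0.789 (permutation p 5.00e-05, adjusted p 0.000400) and a rho of 0.684 (permutation p 0.00108, adjusted p 0.00864), with an r of 0.572 without the 2 extreme animals (permutation p 0.0135). The relation was present among the 20-month animals, with an r of 0.891 (permutation p 0.00104), and not detected among the 22-month animals, with an r of 0.175 (permutation p 0.637); the difference between the ages was not tested. The top of the 20-month group was replicate 3, highest in both muscles, and the bottom was formed by replicates 1 and 6, lowest in both. Myod1 had an r of 0.528 (permutation p 0.0166, adjusted p 0.0443) and a rho of 0.391 (permutation p 0.0896, adjusted p 0.196). Little of this relation remained without the 2 animals, with an r of 0.071. Myog had an r of -0.133 (adjusted permutation p 0.751) and Gadd45a of -0.128 (adjusted permutation p 0.751), so no relation between the muscles was detected for either gene.

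**Figure D4:**
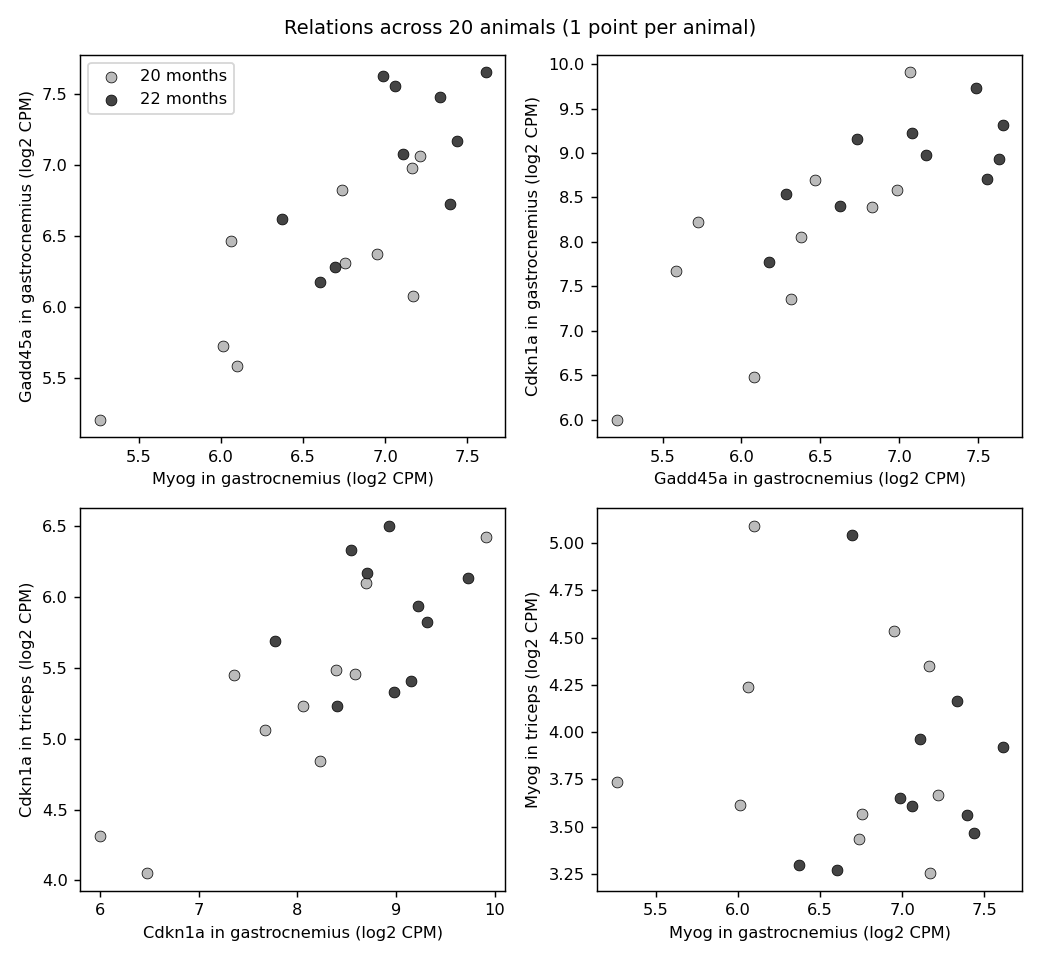
Levels of 20 animals (1 point each, log2 CPM on both axes, pale for 20 and dark for 22 months) for Myog with Gadd45a and Gadd45a with Cdkn1a in gastrocnemius, and for Cdkn1a and Myog in gastrocnemius with the same gene in triceps. Points climb together in the first 3 panels, with r of 0.793, 0.790 and 0.789, and show no such trend for Myog between the muscles, with r of -0.133.

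The study read muscle health from PC1 of gastrocnemius expression, by another way of counting and over a wider span of ages, and set it against muscle mass. Here PC1 was computed in each muscle from the 20- and 22-month animals only, without the 4 genes. It was turned so that the 22-month animals have the higher mean, and was not set against muscle mass or function. The share of variance on PC1 was 32.7% for gastrocnemius and 23.1% for triceps. Whether PC1 follows the TMM factors of the libraries was not tested. The highest gastrocnemius library, 22-month replicate 4, stood at 51.0 on PC1 and had a factor of 1.27. The lowest, 20-month replicate 8, stood at -31.3 with a factor of 0.902, and the next lowest, 22-month replicate 6, at -29.7 with 1.01. Gadd45a in gastrocnemius rose with PC1, with an r of 0.562 (permutation p 0.0104, adjusted p 0.0313) and a rho of 0.550 (permutation p 0.0135, adjusted p 0.0405). Its r was 0.390 without the 2 extreme animals (permutation p 0.110), 0.307 within 20 months and 0.675 within 22 months. Myod1 in triceps had an r of 0.789 with PC1 (permutation p 0.000210, adjusted p 0.00126) and a rho of 0.656 (permutation p 0.00201, adjusted p 0.00965). Its r was 0.408 without the 2 extreme animals, replicate 7 of 20 months among them (permutation p 0.0943). The r was 0.937 within 20 months and 0.338 within 22 months. The other 6 relations with PC1 did not pass, with r of 0.373 for Myog and 0.404 for Cdkn1a in gastrocnemius.

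Across all 40 libraries, the patterns of Myog and Gadd45a were the most alike. Among 12979 other genes, each was the nearest to the other by Pearson's r of log2 CPM, at 0.969. These points share the difference between the muscles, so the value is a description. Within the 20 gastrocnemius libraries, where that difference plays no part, Gadd45a was rank 27 for Myog and Myog was rank 61 for Gadd45a, both with an r of 0.793. There Cdkn1a was rank 65 for Gadd45a, and Gadd45a was rank 128 for Cdkn1a. For Myog, Cdkn1a was rank 351 and Myod1 rank 488, so many other genes came closer. Within the 20 triceps libraries Gadd45a was rank 2 for Myog and Myog was rank 1 for Gadd45a, with an r of 0.746 that fell without 2 animals as given above. Cdkn1a was nearest to ENSRNOG00000016038, with an r of 0.969. The mean level of that gene was 27.2 ± 18.5 CPM and 37.3 ± 11.5 CPM in gastrocnemius at 20 and 22 months, and 7.53 ± 2.96 CPM and 9.64 ± 2.28 CPM in triceps. Myod1 was nearest to ENSRNOG00000004518, with a lower r of 0.825. The mean levels of this gene were 269.6 ± 75.4 and 299.7 ± 65.4 CPM in gastrocnemius at 20 and 22 months and 229.6 ± 54.4 and 249.8 ± 34.3 CPM in triceps. For Myod1, Myog was only rank 771, with an r of 0.443, although the proteins belong to the same family.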

How the data were processed

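Counts per gene were deposited by the authors as a single unnormalized table of whole reads, made with HTSeq. The submitters' processing notes also name CASAVA 1.8, STAR 2.3.0e and the build Rnor_6.0, with no role or order. For the annotation release and the counting options, the sources used here give nothing. The study's own rat values came from kallisto, another way of counting, and the library kit was unstranded. The table had 32545 rows, of which 9545 had no count, and 0 columns were left unused. Libraries were grouped by the muscle and age in their labels, and both muscles of an animal were paired by the animal number. No 2 libraries of a group came closer than a chi-square of 12.1 per gene.

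Tests were run with edgeR 4.0.16 in R 4.3.3. Genes with at least 1 CPM in 10 or more libraries were kept, libraries were scaled by TMM (trimmed mean of M values), and all kept genes were tested with the two-sided quasi-likelihood F-test, with Benjamini-Hochberg adjustment and calls at an adjusted p under 0.01. TMM factors ran from 0.823 to 1.29. Age was 22 minus 20 months within a muscle, and muscle was gastrocnemius minus triceps within an age, each on its own 20 libraries. The difference of both age effects was tested on all 40 libraries. Standard errors were derived from the F statistic. The test was checked on simulated data for age in gastrocnemius and muscle at 22 months. Alternatives were size factors by relative log expression, library totals, no filter, DESeq2 1.42.0, limma 3.58.1 with voom, an adjusted p under 0.05, a replicate block and each animal left out. Log2 CPM for relations and PC1 used a prior count of 2, and for relations a prior count of 0.5 as an alternative. Relations used two-sided permutation tests of 100000 resamples, adjusted over 24 relations.

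The pairing of muscles comes from the animal number that the labels give to both. Once group means were taken off, the median r over genes was 0.158 between muscles of an animal, with 12 of 20 pairs over 0.1 and a lowest r of -0.326. Among animals that shared only a replicate number, 5 of 10 pairs were over 0.1 in each muscle. These values alone cannot decide on the pairing, which rests on the labels.

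The 4 members and the gene lists were chosen with earlier results of these data known. Besides the 4 members, the text names for each the gene whose pattern was most alike, by identifier only. The reference table at hand paired 0 of its genes with an Ensembl identifier, so the symbols of the members come from their definition. The lists of endplate, denervation, myogenic and p53 genes and the markers of cell types, by which the tissue labels would have been checked, were therefore not analysed here.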

Additional observations from a re-analysis of the deposited data

Results flagged for a closer look

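Of the 16 sets of 10 libraries, 1 set per gene and group, 3 had an extreme library whose gap to the nearest other, over the whole range of the set, was above the 95% critical value of Dixon's test for 10 values. Chance flags about 1 in 20 such sets where values are normally distributed. Myog in triceps at 22 months was 32.9 CPM in replicate 7, with the next library at 17.8 CPM and a gap of 0.645 of the range. Gadd45a in the same library was 31.4 CPM, with the next library at 17.0 CPM and a gap of 0.677. In that animal's gastrocnemius Myog was 103.4 CPM and Gadd45a 77.9 CPM, both inside the range of their group. Cdkn1a in gastrocnemius at 20 months was 963.7 CPM in replicate 3, with the next library at 415.2 CPM and a gap of 0.610. The triceps of this animal held the highest Cdkn1a level of its group as well, at 85.6 CPM. On log2 CPM, a scale chosen after seeing the data, the gaps were 0.495 for Myog and 0.544 for Gadd45a, still above the critical value, and 0.310 for Cdkn1a, below it. On that scale the lowest Myod1 level of 20-month triceps, in replicate 7, passed it as well, with a gap of 0.496. What set these libraries apart was not tested.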

How the results depend on the processing

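The calls of Myog, Gadd45a and Cdkn1a between the muscles held in each alternative run, and no member was called in a comparison where it had not been. The adjusted p under 0.05 was tried only with the main edgeR fit. For Myod1 between the muscles at 22 months, the adjusted p-values of the other fits lay on both sides of 0.05. With TMM the median log2 difference over all genes was 0.01 or less in size in every comparison. With library totals it was 0.14 and 0.06 for age in gastrocnemius and triceps, 0.11 and 0.20 for muscle at 20 and 22 months, and 0.08 for the difference of the age effects, and the Myod1 difference of the age effects turned from -0.045 to 0.042. Leaving out animals moved that value from -0.15 to 0.15, with 0.048 without 20-month replicate 3, 0.148 without 20-month replicate 10, and 0.048, 0.021 and 0.023 without 22-month replicates 1, 5 and 8. It moved Myog for age in triceps from -0.38 to 0.017 (without 20-month replicate 9) and Gadd45a from -0.12 (without 22-month replicate 7) to 0.16. The causes of these changes were not tested. With an animal left out, the highest edgeR adjusted p-values of Myog, Gadd45a and Cdkn1a between the muscles at 20 months were 4.03e-05, 1.44e-05 and 0.000894.

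With the animal as a replicate block, the muscle differences were 2.62 for Myog, 2.47 for Gadd45a, 2.72 for Cdkn1a and 0.43 for Myod1 at 20 months, and 3.29, 3.22, 3.04 and 0.39 at 22 months, and the pairing changed no call of a member. Over all genes it gave 506 calls at 20 months against 467, and 2647 at 22 months against 2552. Animals of different ages shared only a number: their deviations correlated with a median r of 0.0805 in gastrocnemius and 0.10 in triceps, and a block on that number left both ages at 0 calls, with 1461 and 1319 genes at an unadjusted p under 0.05. The calls at 20 months were 878 by DESeq2, 1203 at an adjusted p under 0.05, and 206, 215, 210, 276 and 238 without replicates 3, 4, 5, 8 and 9. At 22 months they were 4265 at an adjusted p under 0.05. DESeq2 called 1 gene for age in gastrocnemius, against 0 by edgeR.

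Of the relations, 9 passed over all animals, 5 within 20 months and 0 within 22 months, and this difference between the ages was not tested. Signs turned within an age for 8 relations, none of which passed. In triceps the r of Myog with Myod1 was 0.165 within 20 months, and those of Myod1 with Gadd45a and with Cdkn1a were -0.218 and -0.159 within 22 months. Within 22 months Myog between the muscles had 0.0592, and PC1 had 0.137 with Myod1 in gastrocnemius and -0.213 with Cdkn1a in triceps. Within 20 months PC1 of triceps had 0.118 with Myog and 0.20 with Gadd45a.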
